A study of Rattus norvegicus with 20 samples.

Results

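The glycolytic enzymes examined here are 10 genes, *Hk1*, *Gpi*, *Pfkm*, *Pfkp*, *Aldoa*, *Tpi1*, *Pgk1*, *Pgam1*, *Eno2* and *Ldhb*, taken by symbol from the 31038 gene symbols of the count matrix. All 10 were listed, and all 10 were among the 16605 genes kept, those that reached 5 reads in 10 or more rats. RNA came from the medial prefrontal cortex (mPFC) of 20 male Sprague-Dawley rats, with 1 library per rat. The LSD group (n = 10) received the serotonergic psychedelic lysergic acid diethylamide at 0.16 mg/kg intraperitoneally on alternate days for 90 days, and the Saline group (n = 10) received sterile saline on the same schedule. All rats were 6 to 8 weeks old when treatment began and were housed singly, and tissue was taken after 3 weeks without injections, according to the deposited descriptions. The study's methods give a longer drug-free interval and older rats, for both groups alike. The comparison asks which expression differences remain after repeated LSD has ended.

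Glycolysis splits glucose into pyruvate in the cytosol and yields ATP and NADH. Hexokinase traps glucose in the cell, phosphofructokinase commits it to the pathway, aldolase cuts the sugar into a pair of triose phosphates, and the later enzymes regain ATP. Lactate dehydrogenase interconverts pyruvate and lactate. In the brain, most steps have isoenzymes that differ between cell types: *Aldoc* is an astrocyte marker, and *Eno2*, neuron-specific enolase, is a neuronal one. Hypoxia-inducible factor 1 is a known activator of many glycolytic genes and binds the core letters ACGTG or GCGTG.

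Of the 10 genes, 2 were lower in LSD rats and 0 were higher at an adjusted p under 0.05. *Aldoa*, which encodes aldolase A, fell by 15.4%, and *Pgam1*, which encodes phosphoglycerate mutase, fell by 10.9%. Among all 16605 genes tested, 8.54% were lower and 6.48% were higher by the same rule. A negative log2 fold change (log2FC, LSD against Saline) was found for 9 of the 10 genes, against 49.6% of all genes, and *Eno2* was the exception. Scaling by total counts, which moved the median of all genes to 0.05, left 7 of the 10 negative, with *Pfkp* and *Tpi1* above 0. The median log2FC was -0.11 over the 10 genes and 0.00 over all genes. LSD and Saline values overlapped for all 10 genes, and 0.193% of all genes had groups that did not overlap. Genes of 1 pathway are not independent of each other, so these counts are a description. In bulk tissue, fewer cells of a type and less RNA per cell cannot be told apart.

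The sequences upstream of *Aldoa*, *Pgam1* and *Eno2* are shown because the first pair passed the test and *Eno2* had the opposite sign. They come from RefSeq on the GRCr8 assembly, and each gives the 250 bases that end just before an annotated gene start, 5′ to 3′ on the gene's strand. Capitals mark ACGTG or GCGTG on either strand. *Aldoa* lies on the minus strand at chr1:190836778-190837027 for 1 of its 3 annotated starts, *Pgam1* on the plus strand at chr1:250672902-250673151, and *Eno2* on the minus strand at chr4:159267221-159267470.
Aldoa: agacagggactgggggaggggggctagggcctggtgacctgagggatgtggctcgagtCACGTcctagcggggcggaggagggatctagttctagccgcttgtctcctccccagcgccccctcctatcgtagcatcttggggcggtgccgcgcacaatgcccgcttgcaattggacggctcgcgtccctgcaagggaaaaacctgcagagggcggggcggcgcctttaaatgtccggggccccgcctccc
Pgam1: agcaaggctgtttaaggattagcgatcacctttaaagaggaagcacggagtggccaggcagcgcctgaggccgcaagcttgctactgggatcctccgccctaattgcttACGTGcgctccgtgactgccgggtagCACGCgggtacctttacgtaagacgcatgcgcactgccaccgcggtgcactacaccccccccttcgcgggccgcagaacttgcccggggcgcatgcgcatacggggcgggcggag
Eno2: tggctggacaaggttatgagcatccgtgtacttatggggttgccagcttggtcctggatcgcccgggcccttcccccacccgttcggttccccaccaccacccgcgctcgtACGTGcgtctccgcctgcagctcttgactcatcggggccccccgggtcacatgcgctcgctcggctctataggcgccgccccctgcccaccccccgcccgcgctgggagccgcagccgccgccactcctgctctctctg

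The match in *Aldoa* was ACGTG on the opposite strand at position -192 from the start. The start with a match is the one shown, and the windows of the other annotated *Aldoa* starts held neither ACGTG nor GCGTG. *Pgam1* had ACGTG at -141 and GCGTG on the opposite strand at -115, and *Eno2* had ACGTG at -139. RefSeq windows of 300 bases, from 250 before to 50 after a start, were at hand for 9 of the 10 genes, with 12 windows in all, and *Pgk1* was not among them. On either strand, ACGTG or GCGTG occurred in 8 of these 12 windows and in 41.64% of the 33469 windows of all genes. ACGTG is part of the E-box CACGTG, which occurred in 0 of the 12 windows and in 6.418% of all windows. The GC box GGGCGG was present in 8 of the 12 windows and in 33.06% of all windows. G and C made up 50.33% to 70.67% of the bases in each of the 12 windows, against a median of 51.67% in all windows. Only the windows of *Pfkm* (50.33%) and of 1 *Hk1* start (50.67%) were below that median. The motif counts were not adjusted for base composition. *Tpi1* was the only 1 of the 9 genes with neither ACGTG nor GCGTG in its window, and *Pfkm* the only 1 without GGGCGG. Both lower genes and *Eno2* thus carried ACGTG at the start shown, which for *Aldoa* was the one with a match. The same motif also occurred in *Hk1*, *Gpi* and *Pfkm*, so in 6 of the 9 genes, and it did not set the genes shown apart. By window, it was present in 6 of the 12 and in 19.25% of all windows. The match says nothing about binding.

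Levels are given as RPM, reads per 1000000 after TMM scaling, which equalises libraries on the bulk of their genes, and SE stands for standard error. RPM are not divided by transcript length, so values are compared between rats for 1 gene and not between genes. Reads on genes ranged from 16346629 to 25552681 per LSD rat and from 11098076 to 24201351 per Saline rat. The same test, edgeR's quasi-likelihood F test with Benjamini-Hochberg adjustment over all 16605 genes, gave every adjusted p for a single gene below.

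Entry of glucose depends on hexokinase. *Hk1* (chr20:30773222-30874814) encodes the main hexokinase of brain and had 10568 to 19659 reads per rat. Its RPM were 573 at the lowest, 773 at the median and 932 at the highest in LSD rats, and 604, 844 and 1102 in Saline rats. Most LSD rats, 9 of 10, were below the Saline median, but the groups overlapped over most of their range. The means were 761 ± 94.97 RPM (SD, n = 10) with LSD and 871 ± 150.1 (SD, n = 10) with Saline, and the log2FC of -0.20 (SE 0.093) did not pass (adjusted p = 0.157). *Gpi* (chr1:95965389-95996932), whose product turns glucose 6-phosphate into fructose 6-phosphate, had 925 ± 62.4 RPM (SD, n = 10) with LSD and 1012 ± 101.9 (SD, n = 10) with Saline. All 10 LSD rats were below the Saline median of *Gpi*, and its log2FC of -0.13 (SE 0.059) did not pass (adjusted p = 0.136).

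Phosphofructokinase is represented by its muscle-type subunit *Pfkm* (chr7:131100684-131138250) and its platelet-type subunit *Pfkp* (chr17:68639749-68704055), which both occur in the brain enzyme. *Pfkm* had 681 ± 36.9 RPM (SD, n = 10) with LSD and 731 ± 64.9 (SD, n = 10) with Saline, a log2FC of -0.10 (SE 0.053, adjusted p = 0.190). The 10 LSD rats all lay below the Saline median of *Pfkm*, inside the Saline range. *Pfkp* had 592 ± 60.3 RPM (SD, n = 10) with LSD and 596 ± 44.5 (SD, n = 10) with Saline, and 6 of 10 LSD rats were below the Saline median. Its log2FC was -0.01, with a 95% interval from -0.13 to 0.11.

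Aldolase gave the largest difference among the 10 genes in this fit. *Aldoa* (chr1:190832820-190838021) had 23083 to 45636 reads per rat. Its RPM were 1581 at the lowest, 1697 at the median and 2074 at the highest in LSD rats, and 1694, 2083 and 2298 in Saline rats. All 10 LSD rats were below the Saline median and 5 were below every Saline rat, while LSD replicate 1, at 2074 RPM, stood among the Saline rats. The means were 1712 ± 148 RPM (SD, n = 10) with LSD and 2024 ± 195 (SD, n = 10) with Saline. The log2FC was -0.24 (SE 0.062, 95% interval -0.37 to -0.11, adjusted p = 0.0143), and *Aldoa* ranked 815 of all genes by p. It passed in all 20 fits that left out 1 rat, with log2FCs from -0.28 to -0.22.

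*Tpi1* (chr4:159301558-159305088), which interconverts the triose phosphates, was counted with only 220 to 531 reads per rat. It had 19.3 ± 1.77 RPM (SD, n = 10) with LSD and 19.7 ± 1.36 (SD, n = 10) with Saline, and its log2FC was -0.03, with a 95% interval from -0.15 to 0.09. *Pgk1* (chrX:75336988-75352962), the first ATP-yielding enzyme of the pathway, had 330.1 ± 19.6 RPM (SD, n = 10) with LSD and 357 ± 31.4 (SD, n = 10) with Saline. For *Pgk1*, 9 of 10 LSD rats were below the Saline median, and the log2FC of -0.11 (SE 0.052) did not pass (adjusted p = 0.145).

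*Pgam1* (chr1:250673152-250680762), whose product moves the phosphate of phosphoglycerate, had 6100 to 13110 reads per rat. Its RPM were 429 at the lowest, 476 at the median and 513 at the highest in LSD rats, and 448, 544 and 591 in Saline rats. All 10 LSD rats were below the Saline median, and 7 of 10 Saline rats were above every LSD rat. The means were 475 ± 28.4 RPM (SD, n = 10) with LSD and 533 ± 49.7 (SD, n = 10) with Saline, a log2FC of -0.17 (SE 0.055, 95% interval -0.28 to -0.05, adjusted p = 0.042). This call was close to the threshold: it held in 6 of the 20 fits that left out 1 rat, where the log2FC lay between -0.19 and -0.15 and the adjusted p between 0.0133 and 0.0815. It held without LSD replicate 1 or 3 and without Saline replicate 2, 7, 8 or 10, and did not without each of the other rats. Nor did it pass with scaling by total counts (-0.12) or without the filter on low counts (-0.15).

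*Eno2* (chr4:159258371-159267220), the neuronal enolase, was counted with only 185 to 472 reads per rat. The effect of the annotated gene that overlaps *Eno2* on these counts was not tested. The RPM of *Eno2* were 13.8 at the lowest, 17.9 at the median and 25.9 at the highest in LSD rats, and 10.4, 15.1 and 21.3 in Saline rats. The groups overlapped widely, with 8 of 10 LSD rats above the Saline median. The means were 18.5 ± 3.77 RPM (SD, n = 10) and 16.0 ± 3.94 (SD, n = 10), and the log2FC of 0.22 (SE 0.133, 95% interval -0.05 to 0.49) did not pass (adjusted p = 0.270). *Ldhb* (chr4:177159389-177177408), the heart-type subunit of lactate dehydrogenase, had 554 ± 21.3 RPM (SD, n = 10) with LSD and 585 ± 61.2 (SD, n = 10) with Saline. Its log2FC was -0.08 (SE 0.054, adjusted p = 0.333), and the LSD rats were the more alike, with a coefficient of variation of 3.85% against 10.5%. A smaller coefficient of variation in LSD rats was found for 8 of the 10 genes and for 77.5% of all genes kept.

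**Figure D1:**
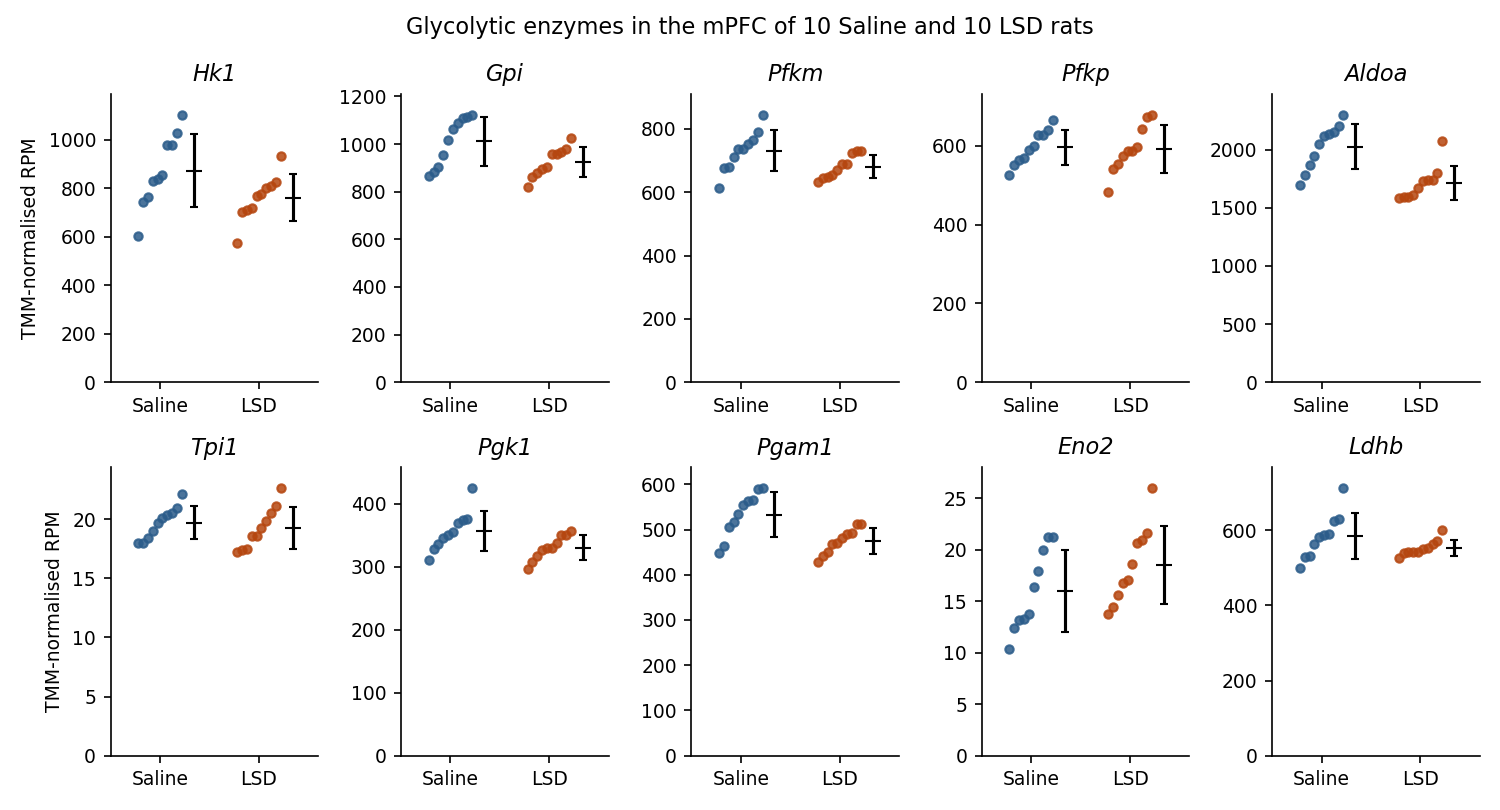
Each panel plots 1 gene in TMM-normalised RPM from 0, with 1 point per rat (10 Saline, 10 LSD, sorted by value) and the mean ± SD as a black bar. For *Aldoa*, LSD replicate 1 at 2074 RPM stands above the other 9 LSD rats, which lie at or below 1799.8 RPM.

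Of the 10 genes, 3 had genomic spans up to 7892 bases, the range of the shortest 2985 genes, and 2 of these, *Aldoa* and *Pgam1*, were the ones that passed. *Aldoa* spans 5202 bases, *Pgam1* 7611 and *Tpi1* 3531 on GRCr8. Across all genes with a known span, 18.8% of these shortest genes were lower in LSD rats and 1.24% higher, with a median log2FC of -0.11. Among the 2986 longest genes, with spans from 77281 bases, 2.58% were lower and 16.5% higher, with a median of 0.10, and *Hk1*, which spans 101593 bases, was the only 1 of the 10 genes among them. With an offset for the span trend in each rat, *Aldoa* had a log2FC of -0.17 (adjusted p = 0.0550), *Pgam1* of -0.10 (adjusted p = 0.179) and *Hk1* of -0.28 (adjusted p = 0.0622), and 0 of the 10 genes passed.

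**Figure D2:**
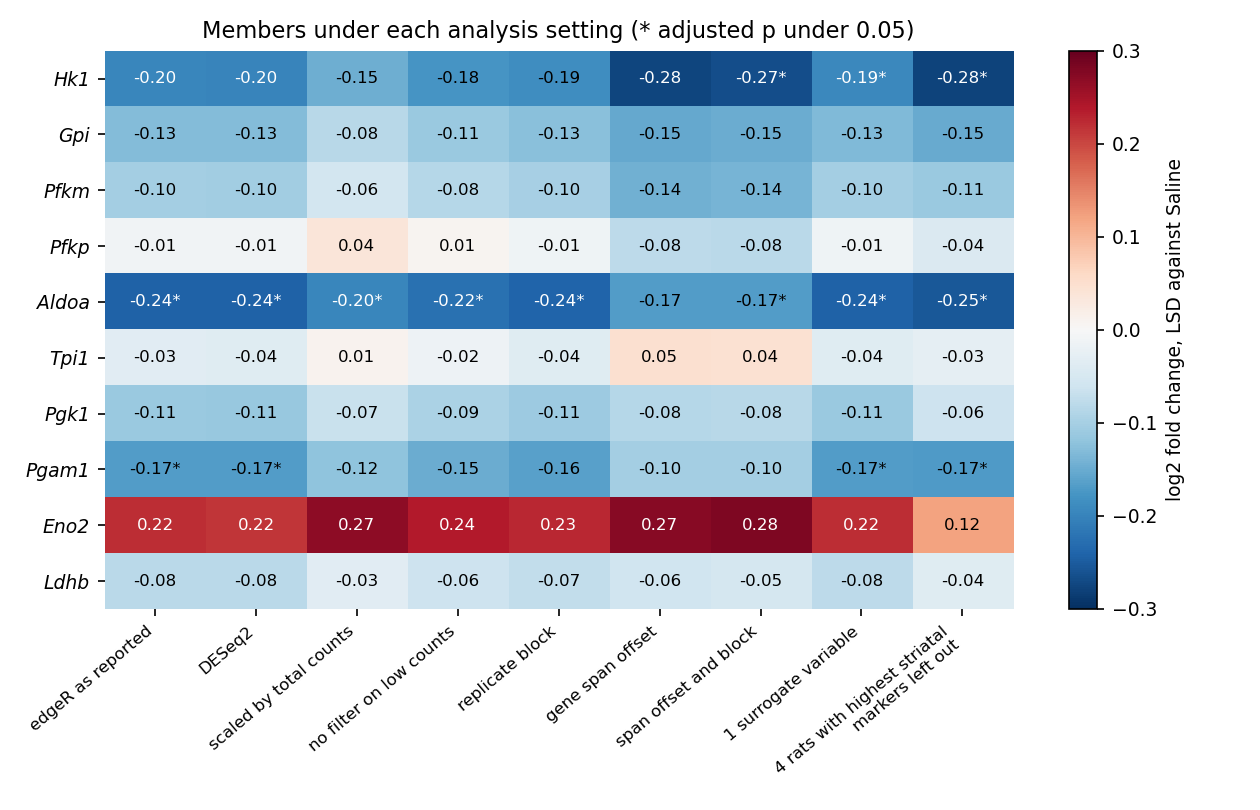
Each cell gives the log2FC of 1 gene (row) under 1 setting (column), blue for lower and red for higher in LSD rats, with an asterisk for an adjusted p under 0.05. *Aldoa* has an asterisk in every column but the gene span offset, and *Eno2* is positive in every column without an asterisk.

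The other genes of the same steps were compared to see which isoenzymes moved. Of 11 tested, 1 was lower and 0 were higher, against 8.54% and 6.48% of all genes, and their median log2FC was -0.14. This was *Aldoc*, which encodes the astrocytic aldolase C. *Aldoc* had 1211 ± 82.6 RPM (SD, n = 10) with LSD and 1529 ± 171 (SD, n = 10) with Saline, and 9 of 10 LSD rats were below every Saline rat. Its log2FC was -0.34 (SE 0.062, adjusted p = 0.00408), and it also passed with the span offset (-0.25, adjusted p = 0.00956). *Eno1*, the widely expressed enolase, had a log2FC of -0.16 (adjusted p = 0.0536), *Ldha*, the muscle-type lactate dehydrogenase subunit, of -0.15 (adjusted p = 0.112), and *Hk2*, an inducible hexokinase, of -0.04 (adjusted p = 0.830). *Eno1* passed with DESeq2 (adjusted p = 0.0318) and without 4 rats with high striatal markers, described below (adjusted p = 0.0488). It did not pass with total-count scaling (adjusted p = 0.120), a block for replicate number (0.0743) or the span offset (0.124). Of 4 genes for the steps that none of the 10 genes covers, 0 were lower and 0 higher. *Gapdh*, glyceraldehyde 3-phosphate dehydrogenase, had a log2FC of -0.09 (95% interval -0.24 to 0.05) and *Pkm*, the main brain pyruvate kinase, of 0.07 (95% interval -0.04 to 0.18), and this pair was named after the values were seen.

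**Figure D3:**
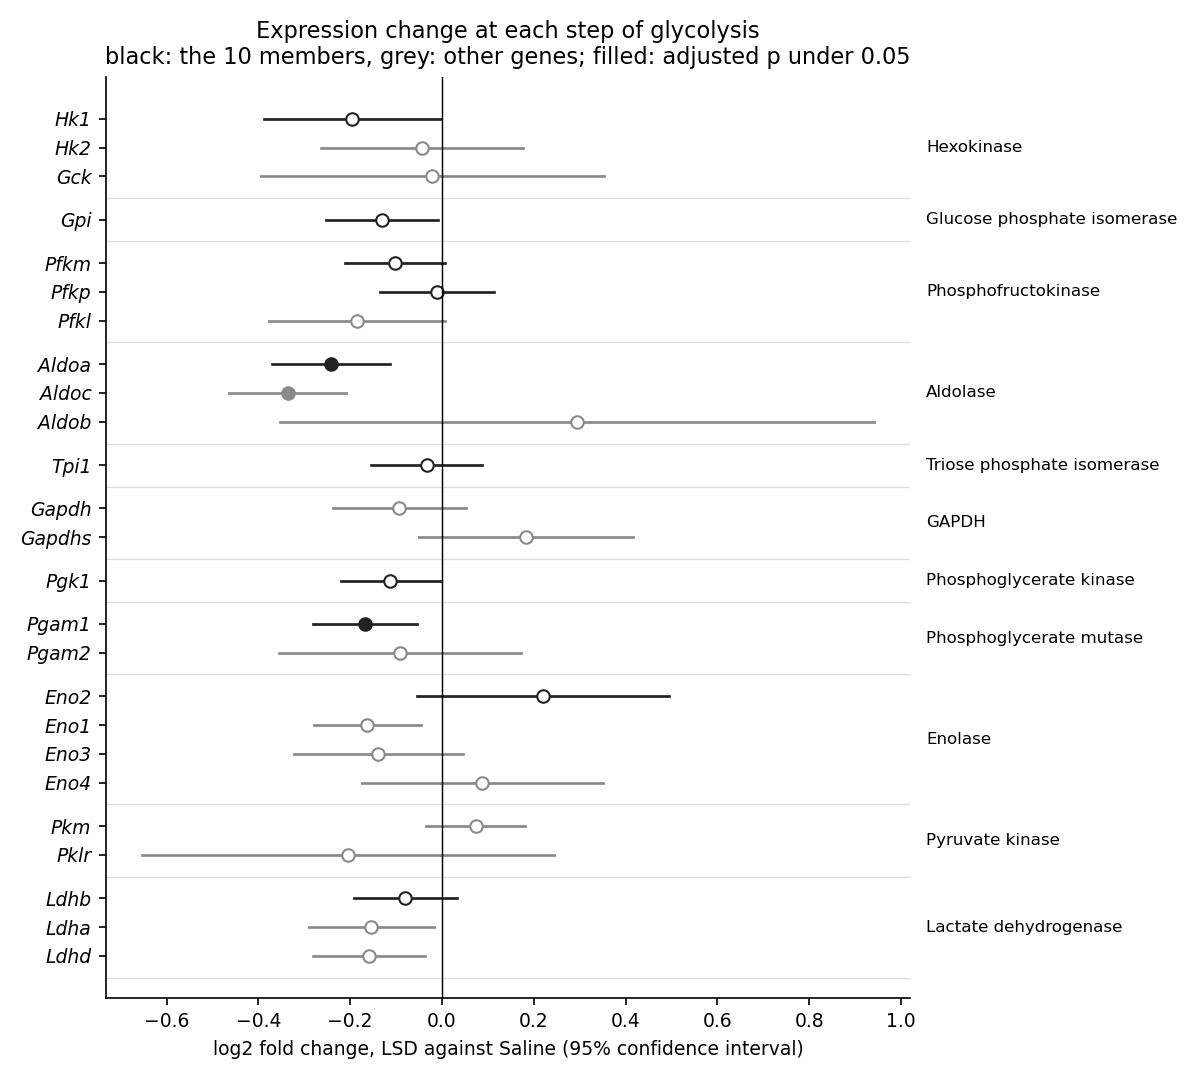
Points are log2FCs (LSD against Saline, 10 rats each) with 95% confidence intervals, ordered along the pathway, black for the 10 genes and grey for other genes of the same or missing steps, filled where the adjusted p is under 0.05. The filled points are *Aldoa* at -0.24, *Aldoc* at -0.34 and *Pgam1* at -0.17.

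Ratios of isoenzymes within a rat do not depend on scaling between libraries, except through the 1 RPM added before the logarithm. That addition weighs most on genes with low RPM, such as *Eno2*. A set of 5 ratios was tested with an exact two-sided permutation test over the 184756 splits of the rats, on log2(RPM + 1). None passed after adjustment over the 5 ratios. The *Eno2*/*Eno1* log2 ratio was higher in LSD rats by 0.37 (SE 0.14, exact permutation p = 0.0188, adjusted p = 0.0941), with 8 of 10 LSD rats above the Saline median. For *Aldoa*/*Aldoc* the difference was 0.09 (SE 0.042, exact permutation p = 0.0440, adjusted p = 0.108), and all 10 LSD rats were above the Saline median. The *Pfkm*/*Pfkp* difference was -0.09 (adjusted p = 0.108), that of *Ldhb*/*Ldha* 0.08 (adjusted p = 0.191) and that of *Hk1*/*Hk2* -0.14 (adjusted p = 0.191), all by the same exact permutation test.

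The pathways that feed and drain glycolysis were examined by lists. For each list, the calls stand beside 8.54% lower and 6.48% higher among all genes. With 7 to 16 genes tested per list, the counts are a description. Of 7 pentose phosphate enzymes, of the route that diverts glucose 6-phosphate to make NADPH and ribose, 3 were lower and 0 higher, with a median log2FC of -0.16. The 3 were *Pgls*, a lactonase (-0.34, adjusted p = 0.0189), *Pgd*, phosphogluconate dehydrogenase (-0.17, adjusted p = 0.0175), and *Tkt*, a transketolase (-0.16, adjusted p = 0.0291). In *Pgd*, 7 of 10 LSD rats were below every Saline rat, with 62.2 ± 3.13 RPM (SD, n = 10) against 69.8 ± 4.73 (SD, n = 10). All 3 passed with the span offset, with adjusted p-values from 0.0366 to 0.0469, and *Pgd* did not pass with total-count scaling (adjusted p = 0.0924).

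Of 12 glycolysis regulators, 1 was lower and 2 were higher. *Egln2*, a prolyl hydroxylase that marks hypoxia-inducible factors for breakdown, had 171 ± 16.3 RPM (SD, n = 10) with LSD and 223 ± 38.3 (SD, n = 10) with Saline, a log2FC of -0.38 (adjusted p = 0.00852). *Hif1a*, the alpha subunit of hypoxia-inducible factor 1, had 72.7 ± 6.29 RPM (SD, n = 10) with LSD and 63.3 ± 6.82 (SD, n = 10) with Saline, a log2FC of 0.20 (adjusted p = 0.0340). *Pfkfb2*, which makes and degrades the phosphofructokinase activator fructose 2,6-bisphosphate, had a log2FC of 0.18 (adjusted p = 0.0217). All 10 LSD rats were above the Saline median for both higher genes and below it for *Egln2*. With the span offset *Egln2* passed (adjusted p = 0.0173), and *Hif1a* (0.15, adjusted p = 0.0945) and *Pfkfb2* (0.14, adjusted p = 0.0525) did not.

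Among 9 glucose and lactate transporter genes, 1 was lower and 2 were higher. *Bsg*, basigin, which carries lactate transporters to the membrane, had a log2FC of -0.29 (adjusted p = 0.00807), and 7 of 10 LSD rats were below every Saline rat. *Slc16a7*, the neuronal lactate transporter MCT2, had a log2FC of 0.32 (adjusted p = 0.0302), and *Slc2a13*, a proton-coupled inositol transporter of the glucose transporter family, of 0.22 (adjusted p = 0.0284). With the span offset *Bsg* passed (adjusted p = 0.0185), and *Slc16a7* (0.23, adjusted p = 0.0813) and *Slc2a13* (0.10, adjusted p = 0.173) did not. With the span offset plus a block for replicate number, *Slc16a7* passed (0.25, adjusted p = 0.0310) and *Slc2a13* did not (0.10, adjusted p = 0.155). Of 13 genes of pyruvate entry into mitochondria, 1 was lower and 0 were higher. This was *Pdk2*, a kinase that inhibits pyruvate dehydrogenase (-0.21, adjusted p = 0.0285). *Pdk2* did not pass with the span offset (-0.18, adjusted p = 0.0548) and passed with the span offset plus block (adjusted p = 0.0253). Of 16 glycogen genes, 1 was lower and 1 higher, both subunits of phosphorylase kinase: *Phkg2* (-0.15, adjusted p = 0.0458) and *Phkb* (0.16, adjusted p = 0.0465). With the span offset neither passed, at -0.12 for *Phkg2* (adjusted p = 0.117) and 0.06 for *Phkb* (adjusted p = 0.502), and *Phkg2* did not pass with total-count scaling (-0.10, adjusted p = 0.145) or without the 4 rats with high striatal markers described below (-0.14, adjusted p = 0.0603).

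**Figure D4:**
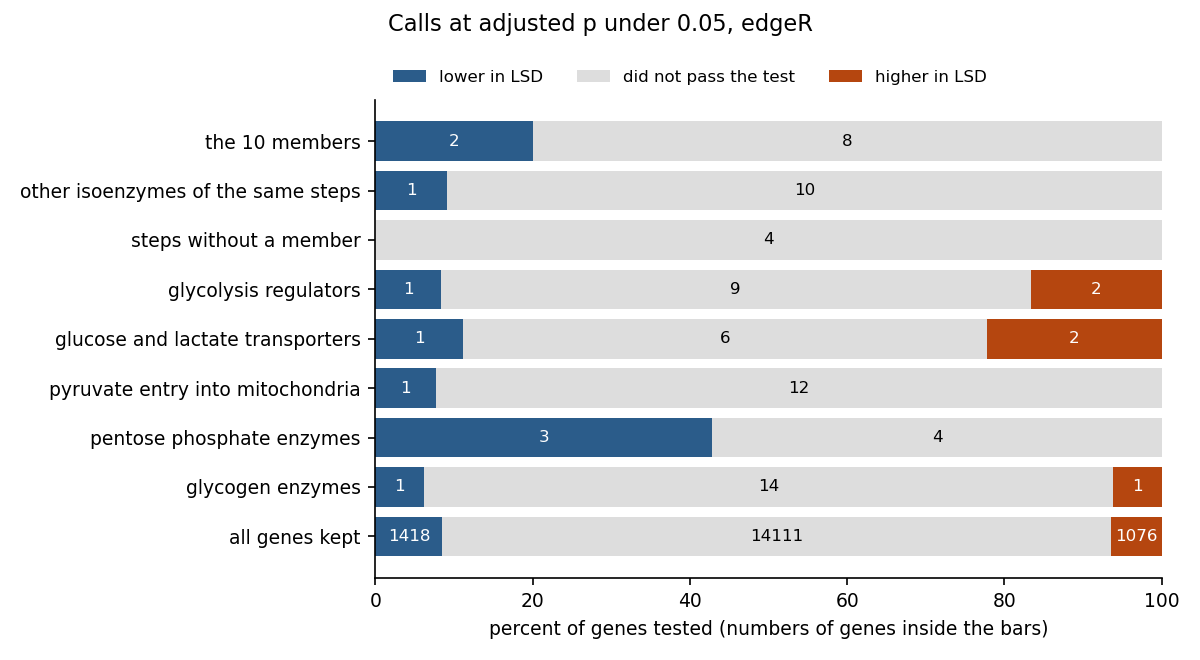
Bars give the percent of tested genes of each list that were lower (blue), did not pass (grey) or were higher (orange) in LSD rats at an adjusted p under 0.05, with the number of genes inside. The pentose phosphate bar holds 3 lower genes of 7, and the bar of the 10 glycolytic genes holds 2 lower and no higher gene.

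The 10 genes varied together between rats to different degrees. After centring within group, the median Pearson's r over the 45 pairs was 0.44 across 20 rats, 20 pairs were over 0.5 and 4 were below 0. The closest pair was *Gpi* and *Aldoa* (r = 0.913) and the most opposed was *Pgk1* and *Eno2* (r = -0.359). *Hk1*, *Gpi*, *Pfkm*, *Pfkp* and *Aldoa* were correlated with each other from 0.68 to 0.91, whereas *Pgk1* and *Ldhb* (r = 0.68) were nearer to each other than to *Hk1* (-0.14 and -0.29). Both also correlated with *Pgam1* (0.666 and 0.605). With *Gpi*, *Ldhb* had r = -0.48 in LSD rats and 0.51 in Saline rats, and its signs also differed with *Pfkm*, *Aldoa* and *Tpi1*. With *Hk1*, *Pfkp*, *Pgk1* and *Pgam1* the sign for *Ldhb* was the same in both groups. The 20 points share library depth and tissue makeup, so these values are descriptive. With the mean standardised profile of the 10 genes, r ran from 0.368 for *Eno2* to 0.956 for *Gpi*. Each of the 10 genes is part of this mean profile, which raises its own r, so these values are not comparable with those of other genes.

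**Figure D5:**
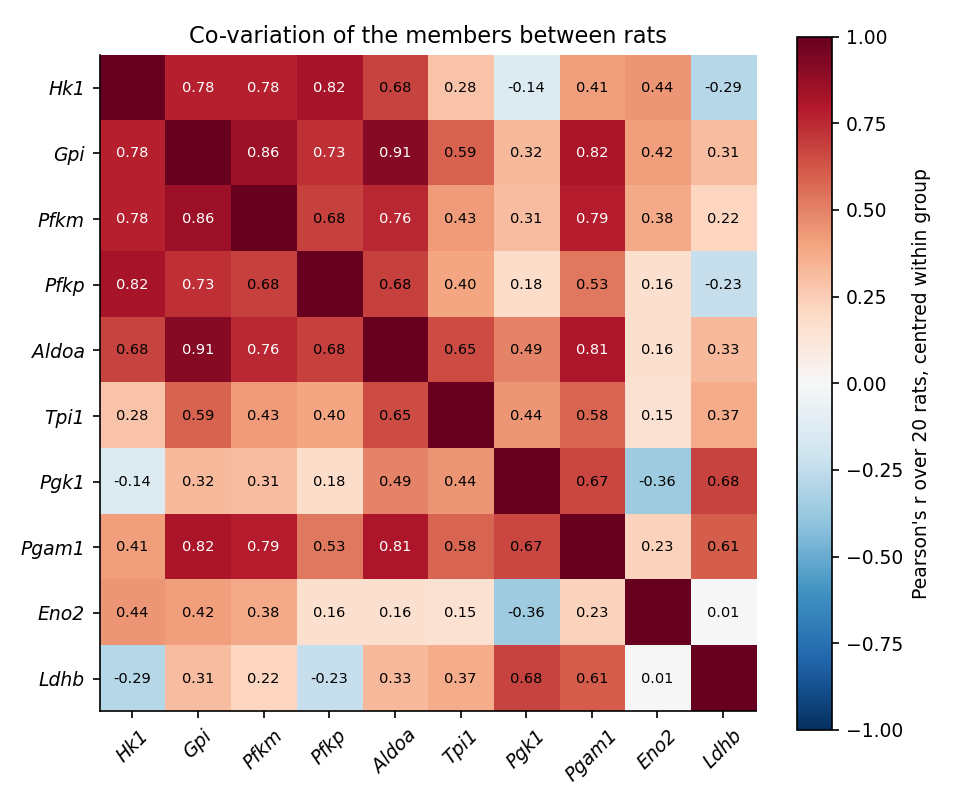
Each cell gives Pearson's r between 2 of the 10 genes across 20 rats after centring within the LSD and Saline groups, on log2(RPM + 1), from blue (-1) to red (1). The block from *Hk1* to *Aldoa* is red, and the *Pgk1* and *Eno2* cell is the lowest at -0.36.

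The 5 other genes most like this mean profile were *Myl12b*, a myosin light chain (r = 0.963), *Acot7*, an acyl-CoA thioesterase (r = 0.941), *Psmd3*, a proteasome subunit (r = 0.937), *Tubb5*, a beta-tubulin (r = 0.922), and *P4htm*, a transmembrane prolyl hydroxylase (r = 0.922), across 20 rats. Their log2FCs were -0.19 for *Myl12b* (adjusted p = 0.0513), -0.26 for *Acot7* (adjusted p = 0.0184), -0.14 for *Psmd3* (adjusted p = 0.0595), -0.20 for *Tubb5* (adjusted p = 0.0200) and -0.22 for *P4htm* (adjusted p = 0.0395).

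Markers of the tissue and its neighbours were set beside these values. Cortical markers were present in all rats (summed RPM of 7 genes 2005 to 2781 with LSD and 2093 to 3155 with Saline), and choroid plexus markers summed to 1.24 to 13.1 RPM. Neuron markers summed to 9092 to 10920 RPM with LSD and 8991 to 11966 with Saline, with 2 of 14 lower and 1 higher, and within groups the 10 genes correlated with this sum at 0.033 (*Ldhb*) to 0.748 (*Pfkm*) across 20 rats. Astrocyte markers summed to 3564 to 4231 RPM with LSD and 3751 to 4612 with Saline. This sum includes *Aldoc* itself, with means of 1211 RPM with LSD and 1529 with Saline, so it is not a separate measure of astrocytes. Of the 10 astrocyte genes 1 was lower, *Aldoc*, and 1 higher, *Slc1a2*, the main astrocytic glutamate transporter (log2FC 0.41, adjusted p = 0.0423). All 10 oligodendrocyte markers had a negative log2FC (median -0.36, 1 lower), summing to 2451 to 6232 RPM with LSD and 2483 to 8090 with Saline. All 5 blood markers were negative as well (median -0.29, 1 lower). Microglia and endothelial markers gave 0 calls of 10 and of 6.

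Striatal markers, genes of the region beneath the cortex, stood apart in 4 rats. All 8 were negative (median -0.55) and 0 passed, and their sum was 554 to 799.5 RPM in LSD replicate 9 and Saline replicates 2, 8 and 9, against 280.1 to 398 in the other rats. Without these 4 rats, a choice made after seeing the data, 3 of the 10 genes were lower: *Hk1* (-0.28, adjusted p = 0.0345), *Aldoa* (-0.25) and *Pgam1* (-0.17). *Eno2*, which had the most negative correlation with the striatal sum (r = -0.613 across 20 rats), had a log2FC of 0.12 without them. The part of cell and tissue makeup in the differences was otherwise not tested.

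Counts of genes with near-identical copies are uncertain, since reads may be split between copies. RefSeq names 9 pseudogenes for *Aldoa*, 13 for *Pgam1*, 8 for *Pgk1*, 3 for *Tpi1* and 1 for *Ldhb*, and none of these pseudogenes was listed in the count matrix, while *Hk1*, *Gpi*, *Pfkm*, *Pfkp* and *Eno2* have 0. For the comparison genes *Eno1*, *Ldha* and *Gapdh* RefSeq names 31, 30 and 81, and 1 of those of *Gapdh* was listed in the count matrix. On GRCr8, *Tpi1* overlaps *Spsb2*, and *Pfkm* overlaps 3 annotated genes, among them *Senp1*. *Aldoa* overlaps *LOC103691235*, *Eno2* overlaps *LOC120102384*, and *Hk1* overlaps *LOC120098927* and *LOC134483920*. The strand setting of the counting is not given in the sources used here. The effect of copies and overlaps on the counts, among them the low counts of *Tpi1* and *Eno2*, was not tested.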

How the data were processed

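RNA of 20 rats was sequenced after poly(A) selection. According to the study's methods, the authors used TrimGalore for trimming, HISAT2 for alignment (rn6) and HTSeq for counting. The deposited values are raw read counts per gene symbol, with no normalisation. Tool versions, annotation and strand setting are not given in the sources used here. The 5 rows without a symbol, 25.5% to 29.0% of all reads, were left out. Groups were taken from the sample labels. The 10 genes, the gene lists and the tests were chosen with earlier results of these data known. A gene of the lists is not reported here and was left out of their counts. Named are all 10 genes, up to 4 genes per pathway list with the smallest p among those past the threshold, the second genes of 5 ratios, and the 5 genes most like the mean profile. Genes that reached 5 reads in 10 or more rats were tested with edgeR 4.0.16 (R 4.3.3) by a quasi-likelihood F test on group alone, after TMM normalisation, with Benjamini-Hochberg adjustment over 16605 genes and a threshold of 0.05. The script was checked on simulated data. Alternatives were DESeq2 1.42.0, its size factors, total-count scaling, other filters, thinning to 11098076 reads, a surrogate variable (sva 3.50.0), a replicate block, each rat left out, and a span offset, which removes each rat's trend over 50 bins of genomic span (span known for 89.9% of genes). Spans and coordinates are from RefSeq on GRCr8, not from rn6. Libraries are 1 per rat, and precision is set by the spread between 10 rats per group.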

Additional observations from a re-analysis of the deposited data

Results flagged for a closer look

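In the LSD group, replicate 1 had 2073.5 RPM of *Aldoa*, and the next LSD rat had 1799.8 RPM. This gap was 0.556 of the range of the 10 LSD rats, beyond Dixon's 95% critical value. It was the 1 group past that limit among 30 groups examined (the 10 genes and 5 ratios in LSD and in Saline), and chance alone passes it in about 1 of 20 groups. Without LSD replicate 1, the log2 fold change of *Aldoa* was -0.28 (adjusted p = 0.00506, edgeR). The reason for its higher value was not tested.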

How the results depend on the processing

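*Aldoa* stayed negative under all alternatives and lost its call in 1, the gene span offset. *Hk1* gained a call with the surrogate variable (adjusted p = 0.0413, edgeR), with the span offset plus block (-0.27, adjusted p = 0.0156), without Saline replicate 2 and without the 4 rats with high striatal markers. The number of the 10 genes lower in LSD rats was 1 with total-count scaling, 1 without the filter, 1 with the replicate block, 0 with the span offset, and 1 to 3 with each rat left out; no alternative gave a higher one. *Pfkp* reversed to 0.035 with total-count scaling and 0.0074 without the filter, and lay between -0.033 and 0.023 with each rat left out. *Tpi1* reversed to 0.011 with total-count scaling, 0.048 with the span offset and 0.045 with span offset and block. None of these reversals passed the test. Over all genes, 1418 were lower and 1076 higher (56.9% lower); total-count scaling gave 858 and 1504 (36.3% lower) and no filter 836 and 960 (46.5% lower). The span offset left 567 higher genes, omitting the 4 rats with high striatal markers gave 1701, and leaving out each rat gave 957 to 1907 lower and 663 to 1669 higher, the highest without Saline replicate 2 and the fewest higher without LSD replicate 8. With each rat left out, the *Aldoa*/*Aldoc* difference ran from 0.072 to 0.114, passing in 1 of 20, and that of *Eno2*/*Eno1* from 0.31 to 0.43, passing in 2 of 20. Lower calls in the glycogen list were 1 in the main fit and 0 to 2 over 8 alternatives. Those in the pentose phosphate list were 3 in the main fit and 2 to 4 over the same alternatives. No label says what the replicate numbers mean, so they were not taken as pairs. Rats with the same replicate number correlated from -0.259 to 0.467 (mean 0.145), 6 of 10 pairs were over 0.1 and 1 LSD rat was closest to its own number. These correlations do not decide whether rats of 1 number shared any handling. With the replicate block 1606 genes were lower and 1355 higher. In that fit *Pgam1* had an adjusted p of 0.0546 (-0.16), *Phkg2* of 0.0547 and *Phkb* of 0.0551, and with span offset and block *Pgd* had 0.0629. The causes of these shifts were not tested.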
